A study of Mus musculus with 9 samples.

Results

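The MYC, MAX and MXD network was followed as a group of 10 genes, chosen by symbol: Myc, Mycn, Mycl, Max, Mxd1, Mxd3, Mxd4, Mxi1, Mnt and Mga. Of these, 9 had a row among the 15552 protein-coding genes counted, and 8 were among the 11373 genes with enough counts to be tested. Mycl had too few counts for a test, and Mycn was not analysed here.

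RNA was measured in MyC-CaP cells, a mouse prostate cancer line, held for 6 to 12 h in medium that lacked serum and calcium and then given 15 ng/mL of recombinant NRG1, which binds and activates HER3. RNA was taken at 0, 12 and 24 h, with 3 libraries per time point, to follow the transcriptional response to that ligand. All 3 groups went through the starvation, and the 0 h group is the only baseline. Libraries kept in the medium for 12 or 24 h without NRG1 were not analysed here, so the effect of NRG1 and the effect of time in the medium cannot be told apart.

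MyC-CaP was derived from a tumor of the Hi-Myc mouse, which carries a human MYC transgene under a probasin promoter. The results therefore describe a single cell line from a tumor with a MYC transgene, grown in replicate wells, and p-values measure the spread between those wells. Expression of the transgene was not measured separately here. Libraries held from 28467089 to 39239760 counts. Of the markers of the labelled cell type, Hoxb13 was at 81.3 to 106 CPM (counts relative to library size, after TMM scaling), Krt19 at 80.2 to 144 CPM and Krt8 at 17.3 to 26.2 CPM, whereas Epcam, Cdh1 and Pbsn had at most 4 counts in any library and Krt18 at most 0.491 CPM. Several defining epithelial transcripts were thus at or near 0 in cells labelled epithelial-like. Basal, fibroblast, leukocyte and endothelial markers had low counts, the highest being 1.02 CPM for Cd68.

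MYC is a transcription factor of the basic helix-loop-helix leucine zipper class, and it binds DNA at E-box sequences (CACGTG) only as a dimer with MAX. The MXD proteins, MNT and MGA also pair with MAX and bind the same sequences, but most of them recruit SIN3 and histone deacetylases and repress. Cells that leave the cycle and differentiate typically exchange MYC for MXD proteins, and MYC is a common driver of prostate cancer.

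To show the sequence to which these dimers bind, the promoters of the members were searched for the E-box. Within the 250 bases before each RefSeq transcription start (GRCm38.p6), 6.02% of 32851 windows held CACGTG, which reads the same on both strands. The members had 10 such windows, from 8 genes, and the E-box was in 2 of them, those of Mxd4 and Mnt. The windows are given as far as the gene's own start in the counted annotation, with the E-box in capitals. That of Mxd4 is on the minus strand at chr5:34187721-34187960, with the E-box beginning 219 bases before the RefSeq start, and that of Mnt is on the plus strand at chr11:74830674-74830919, with the E-box 123 bases before it. Mxd3, the member with the largest change below, had no E-box in its window, of which 158 bases lie before the gene at chr13:55329824-55329981 on the minus strand.
Mxd4: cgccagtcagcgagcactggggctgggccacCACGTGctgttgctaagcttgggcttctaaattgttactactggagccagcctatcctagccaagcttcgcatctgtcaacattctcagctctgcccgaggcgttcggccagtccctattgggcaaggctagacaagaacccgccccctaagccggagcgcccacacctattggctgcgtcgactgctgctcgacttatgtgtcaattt
Mnt: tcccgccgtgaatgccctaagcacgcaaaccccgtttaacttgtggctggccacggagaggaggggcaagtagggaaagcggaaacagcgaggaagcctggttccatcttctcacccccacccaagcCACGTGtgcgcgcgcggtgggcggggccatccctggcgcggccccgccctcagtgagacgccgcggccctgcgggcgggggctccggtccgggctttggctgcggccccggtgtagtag
Mxd3: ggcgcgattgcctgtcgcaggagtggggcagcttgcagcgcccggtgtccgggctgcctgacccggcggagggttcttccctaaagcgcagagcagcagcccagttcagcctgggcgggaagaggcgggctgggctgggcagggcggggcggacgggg

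A match is only a description of the letters, and binding was not measured in these libraries.

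Over the 3 time points, 4 of the 8 tested members changed, beside 27.4% of all tested genes (edgeR quasi-likelihood test over 0, 12 and 24 h, adjusted p at most 0.05, the meaning of passing throughout). These were Mxd4, Mxd3, Mxi1 and Myc. At 12 h against 0 h, 2 members rose (13.6% of all tested genes did) and 1 fell (11.9%). At 24 h against 0 h, 1 rose (9.67%) and 1 fell (7.76%). Between 12 and 24 h, 0 members rose (1.97%) and 1 fell (3.06%), with 3 at an unadjusted p under 0.05 and 2 passing in DESeq2. Leaving out 1 library gave 0 members in that comparison (without replicate 1 or 2 at 12 h or any 24 h replicate) or 2 (without replicate 3 at 12 h). With total counts in place of TMM factors, the share of rises among all genes passing between 12 and 24 h went from 39.2% to 51.3%. The comparisons at 12 and 24 h share the same 0 h libraries. In bulk RNA, fewer cells that express a gene and less RNA per cell cannot be told apart.

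**Figure D1:**
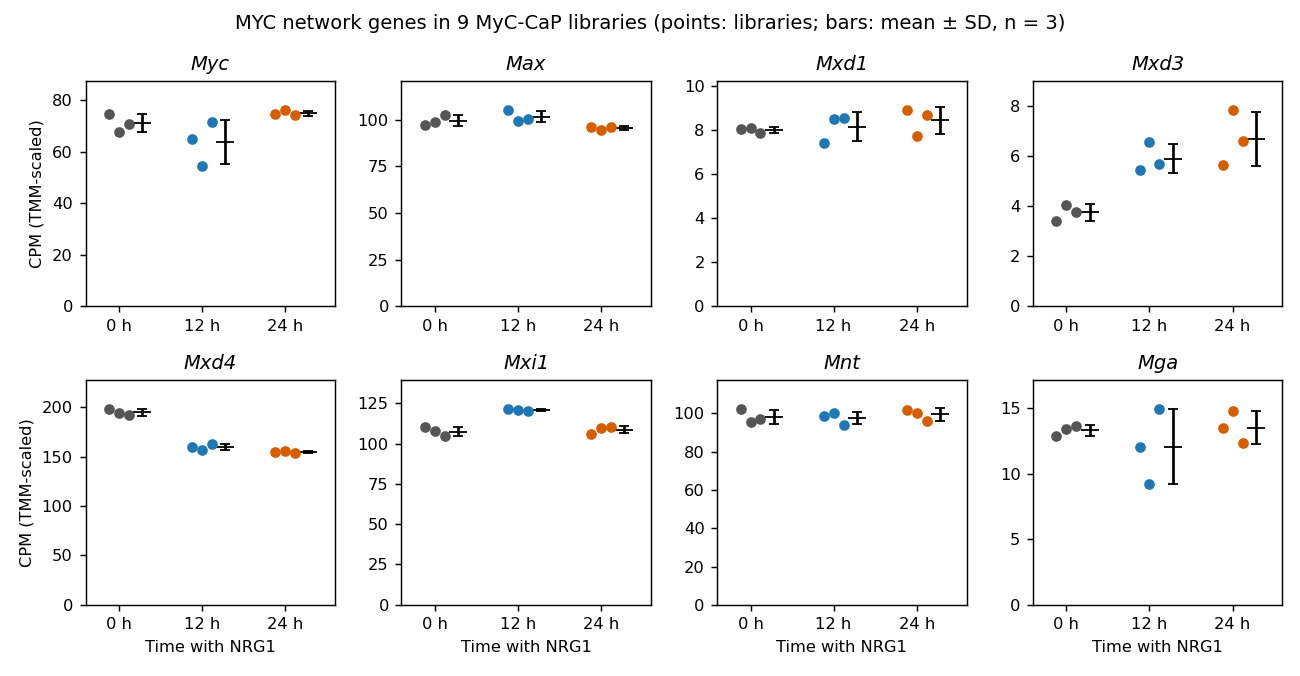
Each panel plots TMM-scaled CPM (vertical axis, from 0) of a network gene in the 9 libraries, by time with NRG1, with the mean ± SD of 3 libraries beside the points. Mxd4 sits lower at 12 and 24 h than at 0 h, Mxd3 higher at both times, Mxi1 higher at 12 h only, and the 12 h points of Myc spread from 54.5 to 71.5 CPM.

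Among the activators, Myc itself (ENSMUSG00000022346.15, chr15:61985391-61990374) passed in no comparison of a pair of time points. It was at 74.7, 67.7 and 70.7 CPM at 0 h, at 64.9, 54.5 and 71.5 CPM at 12 h, and at 74.8, 76.1 and 74.2 CPM at 24 h. The 12 h libraries reached into the 0 h range, whereas all 3 libraries at 24 h lay above all 3 at 12 h. The 12 h mean was 63.6 ± 8.54 CPM (SD, n = 3), below the 0 h mean of 71.0 ± 3.50 CPM. This difference did not pass (log2 fold change -0.16 ± 0.070 SE, edgeR adjusted p = 0.113), although its unadjusted edgeR p was 0.0386. The 95% interval of the log2 fold change ran from -0.30 to -0.0093, negative throughout. The 24 h mean of 75.0 ± 0.962 CPM differed from 0 h by a log2 fold change of 0.08 (adjusted p = 0.481) and from 12 h by 0.24 ± 0.069 (adjusted p = 0.0596), neither passing in edgeR. Over the 3 time points Myc passed, with an adjusted p of 0.0431.

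The size of the Myc changes to and from 12 h depended on which 12 h libraries were kept. Replicate 2 at 12 h was the lowest of all 9, and without it the log2 fold change was -0.06 at 12 h against 0 h and 0.14 at 24 h against 12 h. Without replicate 3 at 12 h, the highest of its group, the same changes were -0.24 (adjusted p = 0.00736) and 0.32 (adjusted p = 0.00292), and both passed. The change between 12 and 24 h also passed in DESeq2 (adjusted p = 0.0235), with total counts (0.0309) and without the filter on low counts (0.00012). The call over the 3 time points rested on libraries of every time and did not hold in 7 of 9 leave-one-out fits. Those were the fits without replicate 1 or 3 at 0 h, replicate 1 or 2 at 12 h, or any 24 h replicate. Reads were aligned to the mouse genome, and whether reads of the human transgene were counted under mouse Myc could not be worked out. The share of either in these values therefore cannot be told apart.

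Mycl, a paralog of Myc used in other tissues (ENSMUSG00000028654.13, chr4:122995652-123002485), had 0, 0 and 2 counts at 0 h, 3, 1 and 0 at 12 h, and 3, 0 and 0 at 24 h. These are at or below the limit of 3 counts that a count of 0 allows, or 0.0764 to 0.106 CPM depending on the library, and no change could be read from them. This limit covers counting error only.

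Max, the shared partner of every other member (ENSMUSG00000059436.13, chr12:76937269-76962201), stayed in a narrow range. It was at 96.9, 98.8 and 103 CPM at 0 h, at 105, 99.2 and 100.4 CPM at 12 h, and at 96.2, 94.3 and 95.8 CPM at 24 h. The 24 h libraries lay below both other groups, yet no comparison passed. The largest of its differences, between 12 and 24 h, was a log2 fold change of -0.09 ± 0.039 (95% interval -0.17 to -0.0081, adjusted p = 0.200). For 24 h against 0 h the 95% interval ran from -0.14 to 0.02.

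The MXD genes moved in different directions. Mxd4 (ENSMUSG00000037235.13, chr5:34173883-34187720), which encodes a repressor linked to differentiation, was at 198, 194 and 192 CPM at 0 h, at 159, 157 and 163 CPM at 12 h, and at 154, 155 and 153 CPM at 24 h. Every library at 12 and 24 h was below every library at 0 h. Mxd4 fell by 17.9% at 12 h (log2 fold change -0.28 ± 0.034, adjusted p = 1.58e-05) and by 20.7% at 24 h (-0.34 ± 0.034, adjusted p = 3.42e-06), with no further change that passed between 12 and 24 h (-0.05, adjusted p = 0.437). Its F value over the 3 time points, 58.0, ranked 97 among the 11373 tested genes. The fall passed at both times under all 15 alternatives tried, with log2 fold changes that ran from -0.30 to -0.27 at the earlier time and from -0.34 to -0.32 at the later. A predicted gene on the opposite strand overlaps 6.06% of its exonic bases.

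Mxd3 (ENSMUSG00000021485.14, chr13:55325168-55329823) encodes the MXD protein known for expression in cycling cells, around S phase, rather than in differentiating ones. It was at 3.41, 4.05 and 3.75 CPM at 0 h, at 5.42, 6.53 and 5.68 CPM at 12 h, and at 5.63, 7.81 and 6.57 CPM at 24 h. All 6 later libraries were above the 0 h libraries. Mxd3 rose 1.56-fold at 12 h (log2 fold change 0.64 ± 0.14, adjusted p = 0.00247) and 1.78-fold at 24 h (0.83 ± 0.13, adjusted p = 0.000361). The step from 12 to 24 h, 0.19 ± 0.13, did not pass (adjusted p = 0.441), and the values of both times overlapped.

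At a threshold of 1.5-fold on top of the adjusted p, Mxd3 was the only member called, at 12 h (2.29% of all tested genes in either direction) and at 24 h (2.27%), and 0 members were called between 12 and 24 h (0.29%), in edgeR and in DESeq2. Without replicate 2 at 12 h, the highest of its group, the 12 h change was 0.56 on the log2 scale, still passing on the adjusted p but short of 1.5-fold. The gene rested on few reads, from 96 to 261 counts per library, and 4.43% of its exonic bases overlap Prelid1 on the opposite strand. The strand setting of the counting was not stated, so reads of the 2 genes in that stretch cannot be told apart.

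Mxi1, also called Mxd2 (ENSMUSG00000025025.14, chr19:53310518-53375810), encodes a repressor that competes with MYC for MAX. It was at 110, 108 and 104 CPM at 0 h, at 121, 121 and 120.2 CPM at 12 h, and at 106, 110 and 110.04 CPM at 24 h. The 12 h libraries lay above all others, and the 0 and 24 h libraries overlapped. Mxi1 rose by 12.5% at 12 h (log2 fold change 0.17 ± 0.036, adjusted p = 0.00235) and fell between 12 and 24 h (-0.15 ± 0.036, adjusted p = 0.0226), so that 24 h differed from 0 h by 0.02 (adjusted p = 0.784). The rise passed under all 15 alternatives. The fall did not pass in 5 of 9 leave-one-out fits, those without replicate 1 or 2 at 12 h or without any of the 24 h replicates, where the adjusted p ran from 0.057 to 0.130 and the log2 fold change from -0.16 to -0.13.

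Mxd1 (ENSMUSG00000001156.9, chr6:86647042-86669161), the founding MXD gene and a marker of differentiation in several lineages, had means of 8.02 ± 0.133, 8.17 ± 0.664 and 8.46 ± 0.622 CPM (SD, n = 3) in time order. The ranges of the 3 time points overlapped and no comparison passed. The 95% interval of its log2 fold change was -0.18 to 0.23 at 12 h and -0.12 to 0.28 at 24 h.

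Mnt (ENSMUSG00000000282.12, chr11:74830920-74845725), a broadly expressed SIN3-binding antagonist of MYC, was at 98.3 ± 3.60, 97.8 ± 3.20 and 99.5 ± 3.18 CPM at 0, 12 and 24 h. These means differed by less than the spread between replicates, and the 95% interval of the log2 fold change was -0.09 to 0.08 at 12 h and -0.07 to 0.11 at 24 h.

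Mga (ENSMUSG00000033943.15, chr2:119897228-119969581) encodes a large protein with both a MAX-binding domain and a T-box, which acts as the scaffold of the Polycomb complex PRC1.6. It was at 12.8, 13.4 and 13.6 CPM at 0 h, at 12.0, 9.20 and 14.9 CPM at 12 h, and at 13.5, 14.7 and 12.3 CPM at 24 h. The 12 h group held both the lowest and the highest library of the 9. No comparison passed (log2 fold change -0.15 ± 0.12 at 12 h, adjusted p = 0.432). Replicate 2 at 12 h was the lowest library for both Myc and Mga.

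**Figure D2:**
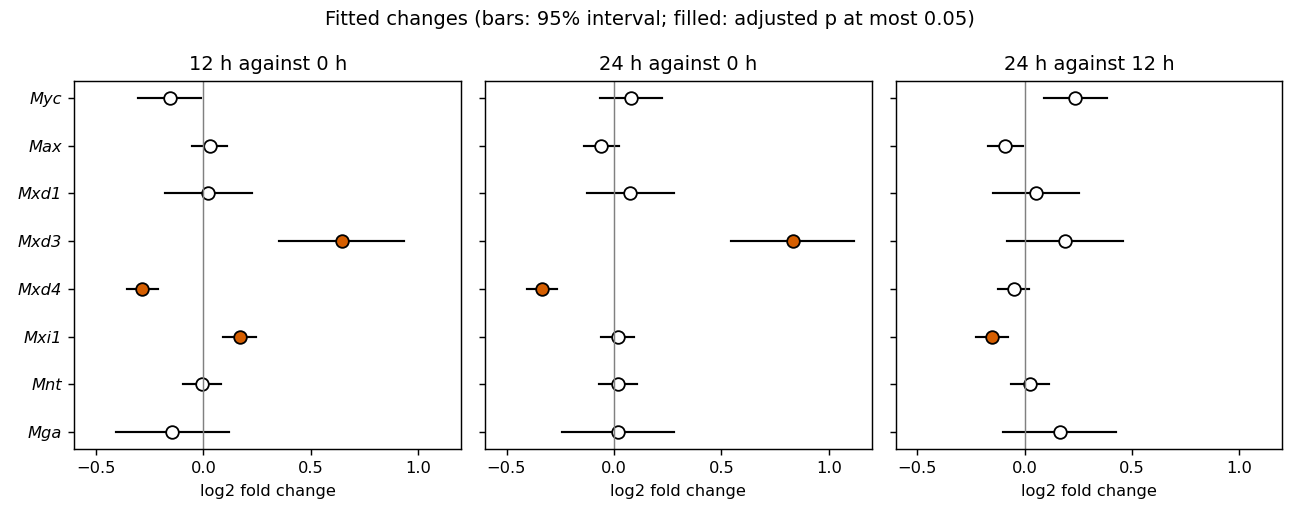
Log2 fold changes of the 8 tested members (horizontal axis) in the 3 comparisons of time points, with 95% intervals as bars and filled points where the adjusted p was at most 0.05. Filled points are Mxd3, Mxd4 and Mxi1 at 12 h, Mxd3 and Mxd4 at 24 h, and Mxi1 between 12 and 24 h.

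**Figure D3:**
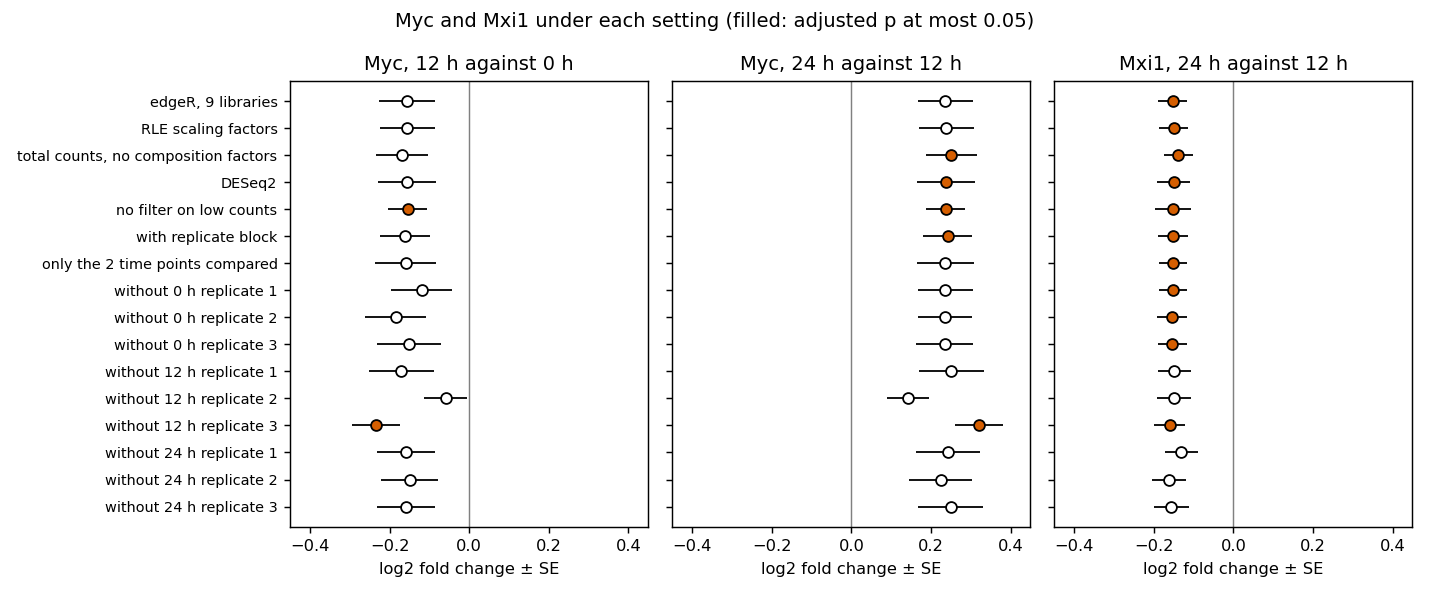
Log2 fold change ± SE (horizontal axis) of Myc in 2 comparisons and of Mxi1 between 12 and 24 h, under each of 16 settings (rows), filled where the adjusted p was at most 0.05. The points of Myc move with replicates 2 and 3 at 12 h, whereas those of Mxi1 stay between -0.16 and -0.13.

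To compare levels between members, CPM were divided by gene length. Per kb of all annotated exonic bases, the 0 h levels were 27.6 ± 0.803 CPM per kb for Max, 26.1 ± 1.29 for Myc, 23.0 ± 0.372 for Mxd4, 21.2 ± 0.779 for Mnt and 15.7 ± 0.410 for Mxi1. Far below stood Mxd3 at 1.58 ± 0.136, Mxd1 at 1.13 ± 0.0188 and Mga at 0.867 ± 0.0261 CPM per kb. The ranges of Max and Myc overlapped at 0 h, and those of all other neighbours in this order did not. At 24 h the order was Myc (27.6 ± 0.354), Max (26.5 ± 0.276), Mnt (21.5 ± 0.688), Mxd4 (18.2 ± 0.127), Mxi1 (15.9 ± 0.338), Mxd3, Mxd1 and Mga, with no overlap between neighbours and with Mxd4 below Mnt.

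This order depended on the length used. Exonic bases include retained introns, and Mxd4 has 8.483 kb of them against 3.872 kb in its longest protein-coding transcript. Per kb of the longest coding transcript, an alternative chosen after seeing the data, Max stood at 51.2 ± 1.49 and Mxd4 at 50.3 ± 0.816 CPM per kb at 0 h, with overlapping ranges. Then followed Myc at 30.4, Mnt at 21.4 and Mxi1 at 21.3 CPM per kb, the last 2 overlapping. At 24 h, by this length, Max (49.1) was above Myc (32.1) and Mxd4 (39.9) remained above Mnt (21.7), so neither the order of Myc and Max nor that of Mxd4 and Mnt at 24 h held under both lengths. By either length, 5 members (Max, Myc, Mxd4, Mnt and Mxi1) had levels above 15 CPM per kb at 0 h and the other 3 tested members below 3.

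The makeup of the MXD group also differed between the time points. Of the summed level per exonic kb of Mxd1, Mxd3, Mxd4 and Mxi1, Mxd4 made up 55.5% ± 0.290 in the 0 h libraries, 46.9% ± 0.738 in those of 12 h and 47.7% ± 0.823 in those of 24 h (SD, n = 3). The part of Mxi1 went from 38.0% ± 0.331 to 44.1% ± 0.525 and 41.8% ± 0.385, and that of Mxd3 from 3.81% ± 0.358 to 6.17% ± 0.608 and 7.37% ± 1.06. Per transcript length, Mxd4 made up 66.1%, 57.8% and 58.4%. The 0 h libraries did not overlap the later ones in the shares of Mxd4, Mxi1 and Mxd3 by either length. These are parts of a whole, so a lower level of Mxd4 raises the shares of the others. The level of Mxi1 itself was 15.7 ± 0.410 CPM per exonic kb at 0 h and 15.9 ± 0.338 at 24 h.

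The ratio of the summed MXD level to that of Myc was 1.59 ± 0.0705 at 0 h, 1.74 ± 0.237 at 12 h and 1.38 ± 0.0216 at 24 h, per exonic kb. The 24 h libraries lay below all others, and the 0 and 12 h libraries overlapped. Per transcript length the ratios were 2.51, 2.66 and 2.13. These ratios describe RNA, and their size depends on the length and on whether reads of the transgene were counted under Myc.

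Genes of the pathway around the members were taken from 7 lists, and are described by counts and medians. Each count is to be read against the share of all tested genes that rose or fell, which was 13.6% and 11.9% at 12 h, 9.67% and 7.76% at 24 h, and 1.97% and 3.06% between 12 and 24 h. Over all tested genes the log2 fold change had a median of -0.0028 at 12 h, -0.0065 at 24 h and 0.0023 between 12 and 24 h.

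Corepressors of the SIN3 and HDAC complexes, which MXD and MNT recruit, had 17 tested genes. At 12 h, 5 rose and 3 fell (median log2 fold change 0.072), and at 24 h, 2 rose and 1 fell (median 0.013). Sap30, a subunit of the SIN3 complex, rose by 0.47 on the log2 scale at 12 h, from 83.4 ± 2.43 to 116 ± 1.72 CPM (adjusted p = 3.81e-07) and stood 0.26 above 0 h at 24 h (adjusted p = 0.000106). Ing2, which reads methylated histone H3, rose at 12 h (0.26, adjusted p = 0.0131), and Ncor1, a nuclear receptor corepressor, fell (-0.19, adjusted p = 0.00277). At 24 h Brms1l rose (0.23, adjusted p = 0.00707), and Rbbp7, a histone-binding subunit, fell (-0.19, adjusted p = 0.00332). Between 12 and 24 h, 0 rose and 3 fell, in edgeR and with 3 passing in DESeq2. The 12 h count of 8 went to 3 without replicate 3 at 0 h and to 5 without replicate 1 or 2 at 12 h.

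The MLX branch, a parallel network that senses glucose and meets this one through MNT and MXD proteins, had 4 tested genes. At 12 h, 0 rose and 2 fell, namely Txnip, which restrains glucose uptake (-0.21, adjusted p = 0.0132), and Mlxip, which encodes the glucose sensor MondoA (-0.19, adjusted p = 0.0126). Of the exonic bases of Txnip, 19.4% overlap a predicted gene on the opposite strand. None of the 4 passed in the later comparisons in either edgeR or DESeq2, with 2 at an unadjusted p under 0.05 for 24 h against 0 h and 0 for 24 h against 12 h. Without replicate 1 or 2 at 0 h, or replicate 1 at 12 h, 1 passed at 12 h.

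The partners of MGA in PRC1.6 had 11 tested genes. At 12 h, 2 rose and 0 fell, and at 24 h, 3 rose and 0 fell, with medians of 0.072 and 0.036. Rybp, a core subunit, rose at both times (0.31, adjusted p = 0.00229, and 0.20, adjusted p = 0.0487), and so did Tfdp1, the dimer partner of E2F proteins (0.17, adjusted p = 0.00717, and 0.15, adjusted p = 0.0245). L3mbtl2, which binds histones, rose at 24 h (0.28, adjusted p = 0.0162), with 17.2% of its exonic bases overlapping another gene. Between 12 and 24 h, 0 passed in edgeR and in DESeq2, with 1 at an unadjusted p under 0.05. The 24 h count fell to between 0 and 1 without replicate 1 or 3 at 0 h or without any of the 24 h replicates.

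Cofactors through which MYC opens chromatin and starts elongation had 18 tested genes. At 12 h, 3 of the 18 rose and 0 fell (median 0.024), a share of rises near the 13.6% over all tested genes. Ruvbl2 and Ruvbl1, ATPases of the TIP60 and INO80 complexes, rose by 0.30 (adjusted p = 7.69e-06) and 0.16 (adjusted p = 0.00986), and Cdk9, the elongation kinase, rose by 0.12 (adjusted p = 0.0426). Gys1 and Lhb, on the opposite strand, overlap 15.4% of the exonic bases of Ruvbl2. At 24 h, 0 passed in edgeR and in DESeq2, with 2 at an unadjusted p under 0.05, and between 12 and 24 h Ruvbl2 fell (-0.23, adjusted p = 0.000592). Without replicate 3 at 12 h, 9 cofactors passed at 12 h and 6 from 12 to 24 h.

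Genes that set the life of the MYC protein, both those that destroy and those that stabilise it, had 15 tested genes. At 12 h, 4 rose and 1 fell, and at 24 h, 2 rose and 1 fell (medians 0.080 and 0.064). Aurka, a mitotic kinase that also stabilises MYC family proteins, rose from 26.7 ± 1.14 CPM to 38.0 ± 3.04 CPM at 12 h (0.51, adjusted p = 2.51e-05) and 39.5 ± 2.24 CPM at 24 h (0.56, adjusted p = 1.06e-05). Cip2a, which shields MYC from the phosphatase PP2A, rose by 0.34 (adjusted p = 0.000645) and 0.43 (adjusted p = 8.53e-05). Fbxw7, the substrate receptor of a ubiquitin ligase for MYC, fell from 68.9 ± 2.68 to 54.9 ± 4.37 and 56.0 ± 0.602 CPM (-0.33, adjusted p = 0.000249, and -0.30, adjusted p = 0.000727). The other rises at 12 h were Usp37, a deubiquitinase (0.27, adjusted p = 0.00704), and Ppp2r5a, which encodes a part of PP2A (0.13, adjusted p = 0.0141). Aurka and Cip2a are also known as cell cycle genes. MYC protein was not measured in these libraries. Between 12 and 24 h, 0 passed in edgeR and in DESeq2, with 0 at an unadjusted p under 0.05. Without replicate 3 at 12 h, 8 turnover genes passed at 12 h and 2 from 12 to 24 h.

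Targets commonly activated by MYC, chiefly genes of ribosome assembly and metabolism, had 32 tested genes. At 12 h, 9 rose and 0 fell, with a median of 0.089. At 24 h, 2 rose and 0 fell, with a median of -0.016, and between 12 and 24 h, 0 rose and 4 fell, with a median of -0.095. Shmt2, a mitochondrial enzyme of serine metabolism, rose from 224 ± 13.5 to 302 ± 12.3 CPM at 12 h (0.43, adjusted p = 3.79e-06) and 292 ± 1.99 CPM at 24 h (0.38, adjusted p = 1.23e-05). Ran, a GTPase of nuclear transport, rose at both times (0.23, adjusted p = 0.000348, and 0.17, adjusted p = 0.00501), and Eif4e, the cap-binding translation factor, rose at 12 h (0.22, adjusted p = 0.000932). Without replicate 3 at 12 h, 15 passed at 12 h and 9 between 12 and 24 h, and leaving out replicate 1 or 2 at 12 h or any of the 24 h replicates left 0 or 1 between 12 and 24 h.

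Targets commonly repressed by MYC had 8 tested genes. At 12 h, 2 rose and 1 fell (median 0.124), and at 24 h, 2 rose and 1 fell (median -0.058). Between 12 and 24 h, 0 rose and 2 fell (median -0.095). Cdkn1a, which encodes the cell cycle inhibitor p21, rose from 47.4 ± 6.52 to 85.1 ± 12.5 CPM at 12 h (0.84, adjusted p = 7.82e-06) and fell between 12 and 24 h (-0.58, adjusted p = 0.00152). The difference of Cdkn1a at 24 h against 0 h, 0.26, did not pass (adjusted p = 0.0653). Gadd45a, a stress-response gene, rose by 0.55 at 12 h (adjusted p = 0.00213) and 0.41 at 24 h (adjusted p = 0.0214), with 19.1% of its exonic bases overlapping another gene. Cdkn2b, which encodes the inhibitor p15, rose at 24 h (0.40, adjusted p = 0.00932). Clu fell at 12 h (-0.19, adjusted p = 0.0239) and Ndrg2 at 24 h (-0.18, adjusted p = 0.00459).

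**Figure D4:**
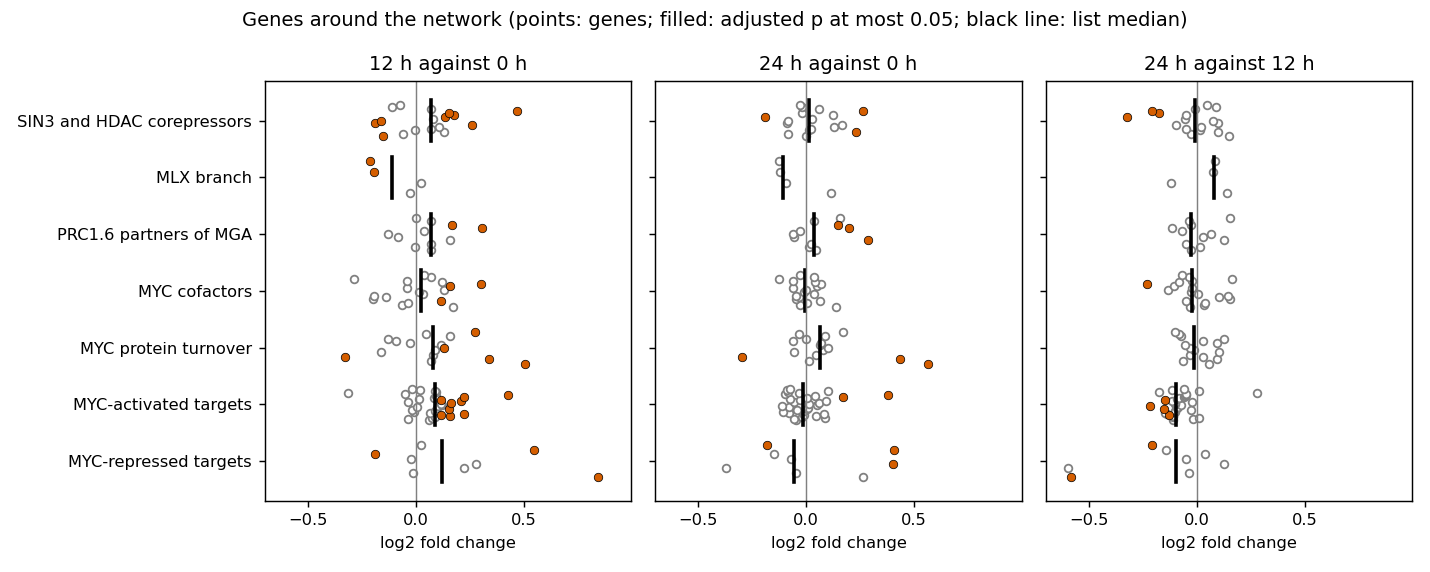
Log2 fold change (horizontal axis) of each tested gene in the 7 lists around the network, by comparison, with filled points where the adjusted p was at most 0.05 and a black line at the median of each list. The median of the MYC-activated targets lies at 0.089 at 12 h and at -0.095 between 12 and 24 h.

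The genes whose log2 CPM followed each of 2 members most closely over the 9 libraries were drawn from 8434 candidates with a mean of at least 10 CPM. For Mxd4 they were Anpep, an aminopeptidase of the cell surface (Pearson r = 0.995), Chd3, a helicase of the NuRD complex (0.991), Ctr9, a subunit of the PAF elongation complex (0.989), Glyr1 (0.986) and Tcp11l2 (0.986). For Myc they were Tecpr2 (0.948), Dock6 (0.941), Ypel3 (0.907), Dtx3l (0.897) and Zfp809 (0.895). The 9 points share 3 time points and the same libraries, and the genes were picked as the highest of many, so these values are descriptions only.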

How the data were processed

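The authors trimmed reads with Cutadapt, aligned them with STAR to GRCm38.p6 with a GENCODE annotation and counted them with featureCounts; the strand setting is not given in the sources used here. The deposited values are raw counts per gene, not normalized. Counts were filtered with filterByExpr, scaled by TMM and fitted over all 9 libraries with edgeR 4.0.16 (glmQLFit, glmQLFTest) in R 4.3.3, without a block, with Benjamini-Hochberg adjustment over 11373 genes. SE were taken from the fold change and its F. A gene passed at an adjusted p of 0.05 and was called also at 1.5-fold. Log2 CPM used a prior count of 2. Alternatives were RLE factors, total counts, DESeq2 1.42.0, no filter, a replicate block, only the time points compared, and each library left out. On simulated counts for 12 h against 0 h over 11312 genes, 34 of 50 genes changed 1.25-fold and 44 of 50 changed 1.5-fold passed, with 9 false passes. Only 50 genes at each of 1.25, 1.5, 2 and 3-fold were changed there, at 12 h, and all others were held flat. In the data 2896 of 11373 genes passed at 12 h against 0 h, so these rates need not carry over.

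The members and the lists were chosen with earlier results of these data known. All members were named, with up to 3 passing genes of largest change from each list in each comparison against 0 h. Ruvbl2 and Cdkn1a between 12 and 24 h, and Cdkn1a at 24 h against 0 h, were added after their values were seen. Usp37 and Ppp2r5a at 12 h were added in the same way. In the lists, Brms1, Mlxipl, E2f6, Ccnd2, Ndrg1 and Thbs1 had too few counts to test and Gas1 was not analysed here; Wdr5, Hdac1 and Hdac2 stood in 2 lists. Exonic lengths, overlaps and transcripts came from GENCODE on GRCm38, which matched 15541 of 15552 identifiers; promoters came from RefSeq, whose table had no Myc entry here. Same-numbered libraries of different times did not deviate together (Pearson r of deviations from the group means between -0.0744 and 0.131 over 9 pairs), so the numbers do not pair them. Chi-square values per degree of freedom between replicates ran from 3.40 to 10.3, so none was a repeat of another within counting noise. The highest, 10.2 and 10.3, were those of replicate 3 at 12 h against replicates 1 and 2, which stood at 4.33 against each other. Over all tested genes, replicate 3 was thus the library that differed most within the 12 h group. At depths of 28467089 to 39239760 counts, Mycl had 0 to 3 counts per library and was not tested. The precision of Mxd3, Mxd1 and Mga rests on 96 to 510 counts per library. Some further markers are not reported here.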

Additional observations from a re-analysis of the deposited data

How the results depend on the processing

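The changes of Mxd4 and Mxd3 at 12 and 24 h and of Mxi1 at 12 h kept direction and side of the threshold under all 15 alternatives. Between 12 and 24 h, 2 members passed (Mxi1 and Myc) in place of 1 with total counts, DESeq2, no filter on low counts and the replicate block, in which Myc changed by 0.24 (adjusted p = 0.034); the block moved no other count of members, and 4 of 9 libraries correlated best with their own number. Leaving out 1 library gave 0 to 2 members in that comparison (2 without replicate 3 at 12 h, 0 without replicate 1 or 2 at 12 h or any 24 h replicate) and 0 to 1 called 1.5-fold at 12 h (0 without replicate 2 at 12 h). Over all genes between 12 and 24 h, 572 passed, against 950 without the filter, 214 to 263 without replicate 1 at 12 h or any 24 h replicate, and 879 without replicate 3 at 12 h.

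Small estimates that did not pass changed sign when 1 library was left out. These were Mxd1 (-0.010 to 0.093), Mnt (-0.026 to 0.030) and Mga (-0.31 to 0.010) at 12 h, Mnt (-0.00094 to 0.047) and Mga (-0.045 to 0.088) at 24 h, and Mxd1 (-0.017 to 0.11) and Mnt (-0.0078 to 0.055) between 12 and 24 h.

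Without the filter, 7 cofactors passed at 12 h, 1 at 24 h and 3 between 12 and 24 h, 1 gene of the MLX branch and 5 repressed targets passed at 24 h, and 1 turnover gene and 7 activated targets between 12 and 24 h, where total counts gave 1 activated target. Leaving out 1 library at 12 h against 0 h gave 3 to 8 corepressors (3 without replicate 3 at 0 h, 5 without replicate 1 or 2 at 12 h), 1 to 2 of the MLX branch (1 without replicate 1 or 2 at 0 h or replicate 1 at 12 h), 2 to 9 cofactors, 4 to 8 turnover genes and 7 to 15 activated targets, the highest of each without replicate 3 at 12 h. At 24 h it gave 0 to 3 PRC1.6 partners. Between 12 and 24 h it gave 1 to 6 cofactors, 0 to 2 turnover genes and 0 to 9 activated targets, the highest without replicate 3 at 12 h, and 1 to 2 repressed targets (1 without replicate 3 at 24 h). The cause of these moves was not tested. Total counts put Mxi1 at 120.1 CPM at 12 h. With transcript in place of exonic lengths, chosen after seeing the data, the ratio of MXD to Myc levels was 2.51, 2.66 and 2.13 at 0, 12 and 24 h.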
